A study of Mus musculus with 60 samples.

Results

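The astrocytes of 9-month-old AD mice were set against the astrocytes of 2-month-old AD mice, gene by gene. A gene was kept where its FPKM (fragments counted per kilobase of transcript and scaled to the depth of sequencing) was at least 0.5 in 1 or both of the 2 age groups, which left 15867 of the 35999 genes in the deposited table. The AD mice carry APPswe/PS1ΔE9, 2 familial Alzheimer's disease transgenes expressed under the mouse prion protein promoter, and they deposit amyloid in the brain as they age. The wild-type (WT) mice were littermates on the C57BL/6J background. All mice were male, each sample came from the whole brain of 1 animal, and astrocytes were sorted by the surface antigen ACSA2 after perfusion, removal of the meninges and depletion of myelin. The study followed microglia and astrocytes of both genotypes at 2, 4, 6, 9 and 12 months, in 20 groups of 3 samples each, and the comparison here used the AD astrocytes at 9 and 2 months, with the WT astrocytes at 9 and 2 months and the other ages as side information.

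Astrocytes take up glutamate and potassium, line the blood vessels of the brain with their endfeet, release signals that build and prune synapses, and turn reactive in injury and amyloid disease. They also supply cholesterol to neurons, because plasma cholesterol does not cross the blood-brain barrier and the brain has to make its sterol itself. The sterol pathway is set by the transcription factor SREBP2, which turns on nearly every enzyme of the chain together. Oligodendrocytes, which wrap axons in myelin, make large amounts of cholesterol while they build their membrane.

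The deposited table gave 1 FPKM per gene and group, the authors' mean. The printed precision of these means let the whole fragment numbers of the 3 libraries behind them be recovered for 14881 of the kept genes (93.8%), and 986 genes had no recovered libraries. The libraries are called a, b and c from the deepest to the shallowest, since their link to a labelled mouse is not known. Group means are given first, with no error, and library values follow them. A gene is said to have risen or fallen only where limma, a moderated linear model, gave it a Benjamini-Hochberg adjusted p under 0.05 on the recovered libraries. This test was added after the data had been seen. Log2 fold changes (9 months over 2 months) from limma are given ± the standard error, with 3 libraries per age.

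The 9-month libraries held 22580000 to 22830000 fragments and the 2-month libraries 19311000 to 21044000, as the recovery of whole fragment numbers gave them. All 18 astrocyte markers were kept and summed to 2115.6 FPKM at 9 months and 2220.2 FPKM at 2 months, so the sort carried its defining transcripts at both ages. Oligodendrocyte transcripts were also abundant, with 14 markers at 14053.6 FPKM at 9 months and 22772 FPKM at 2 months. Endothelial markers summed to 1222 FPKM at 9 months and 2715 FPKM at 2 months, red blood cell markers to 63.2 and 236.8 FPKM and choroid plexus markers to 172.6 and 662.5 FPKM, in the same order of ages. Neuronal markers were low at both ages, with 26.3 FPKM at 9 months and 34.2 FPKM at 2 months, and so were microglial markers, with 29.1 and 24.4 FPKM. The deepest 2-month library stood apart: its recovered endothelial markers summed to 2220.2 FPKM, against 1097.3 and 973.4 FPKM in the other two 2-month libraries and 548.0 to 917.4 FPKM in the 9-month libraries. Counts of the main gene lists are therefore also given without it. App read 660.4 FPKM at 9 months and 608.6 FPKM at 2 months in AD astrocytes, near the WT levels of 669.8 and 637.6 FPKM, and the genotype of the groups rests on the labels.

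**Figure D1:**
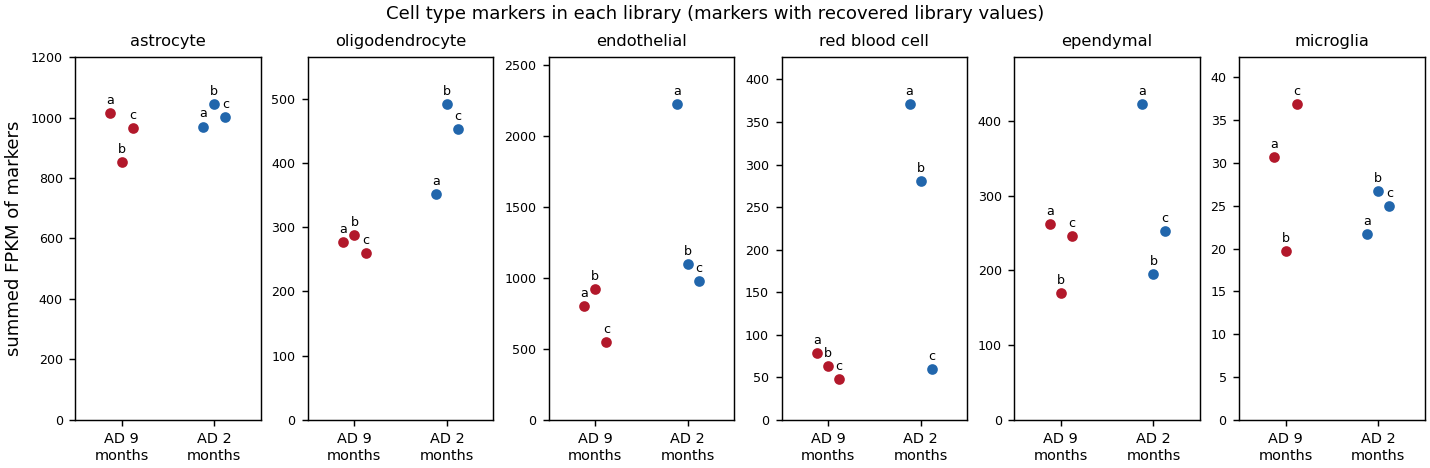
Summed FPKM of the cell type markers with recovered values in each library (a, b, c), AD 9 months left of AD 2 months, on linear axes from 0 that differ between panels. Astrocyte sums lie between 853.6 and 1043.9 FPKM in all 6 libraries, the sums of 4 oligodendrocyte markers are lower in the 3 libraries of 9 months (259.2 to 287.2 FPKM) than in the 3 of 2 months (351.2 to 491.2 FPKM), and 1 library of 2 months has 2220.2 FPKM of endothelial markers. The other 10 oligodendrocyte markers have no recovered libraries and hold most of the list's 14053.6 FPKM at 9 months and 22772 FPKM at 2 months.

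By fold alone, 2012 of the 15867 kept genes (12.7%) were higher at 9 months by more than 0.5 on the log2 scale and 1620 (10.2%) were lower by more than 0.5. The median log2 fold change of all kept genes was -0.04. The split moved with the scaling: with size factors from the better expressed genes only (1 FPKM or more in all 10 astrocyte groups), 2511 were higher and 1190 lower, and the median moved to 0.05. With limma, 539 of the 14881 genes tested rose (3.62%) and 629 fell (4.23%), against 4428 genes at an unadjusted p under 0.05. Of these, 471 and 450 also passed the fold of 0.5. The calls depended on the libraries used, least on the deepest 2-month library, without which 323 of the 539 and 388 of the 629 were still made. Leaving out library a, b or c of 9 months left 56, 48 and 54 genes that rose and 38, 40 and 44 that fell, whereas leaving out library a, b or c of 2 months left 410, 188 and 134 that rose and 546, 91 and 98 that fell.

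The enzymes of cholesterol synthesis were lower in 9-month than in 2-month AD astrocytes almost throughout the pathway. Of 23 listed genes, which include the regulators Srebf2 and Insig1 and were all kept, 20 were lower by more than 0.5 on the log2 scale and none was higher, with a median log2 fold change of -0.99. With limma, 17 of the 21 genes with libraries fell and none rose. Over all genes, 10.2% were lower by fold and 4.23% of those tested fell. Without the deepest 2-month library, 20 of the 21 fell; with 1 of the others left out, between 8 and 12 did (8, 9 and 9 without library a, b or c of 9 months, and 12 without either b or c of 2 months).

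Hmgcs1 (ENSMUSG00000093930), which makes the HMG-CoA that feeds the pathway, had 16.6 FPKM at 9 months, with 15.7, 15.2 and 18.8 FPKM in its libraries, against 64.3 FPKM at 2 months, with 54.5, 63.0 and 75.4 FPKM. The highest 9-month library lay far below the lowest 2-month library, and the fitted difference was -1.97 ± 0.14 (limma adjusted p = 0.0041). The levels rested on 1580 to 6690 fragments per library.

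The promoter of Hmgcs1 is shown because it holds the letters CACCCCAC, the core of a sterol response element, which are printed in capitals and begin 136 bases before the start of transcription. It was taken from the RefSeq annotation of GRCm38.p6 at chr13:119690101-119690400 on the plus strand, from 250 bases before the start to 50 after it.
Hmgcs1 promoter: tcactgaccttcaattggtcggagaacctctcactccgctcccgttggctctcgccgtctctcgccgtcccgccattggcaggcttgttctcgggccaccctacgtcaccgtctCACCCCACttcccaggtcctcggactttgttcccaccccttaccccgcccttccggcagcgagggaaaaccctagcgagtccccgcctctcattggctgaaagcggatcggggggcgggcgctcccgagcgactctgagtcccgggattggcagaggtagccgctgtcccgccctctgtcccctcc
These letters, searched on both strands, were found in 2 of the 17 cholesterol synthesis genes with a promoter in the table (Hmgcs1 and Acat2, 11.8%) and in 891 of all 27025 promoters (3.30%). Such a match is a description of the sequence only.

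Further down the chain, the isoprenoid steps were also lower. Mvk, mevalonate kinase, had 6.15 FPKM at 9 months and 10.6 FPKM at 2 months, and Mvd, which decarboxylates mevalonate pyrophosphate, had 12.0 and 23.5 FPKM at the same ages. Both fell, by 0.80 ± 0.09 and 1.0 ± 0.14 on the log2 scale (limma adjusted p = 0.011 and 0.020). Idi1, which isomerises isopentenyl pyrophosphate, had 7.55, 6.51 and 6.91 FPKM in the 9-month libraries and 16.97, 22.1 and 23.4 FPKM in the 2-month libraries (-1.58 ± 0.14, limma adjusted p = 0.0056). Fdps, farnesyl pyrophosphate synthase, was the one member without a lower level and was barely above the filter, with 0.605 FPKM at 9 months and 0.585 FPKM at 2 months.

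The committed sterol steps gave the same direction. Fdft1, squalene synthase, had 24.8 FPKM at 9 months and 54.3 FPKM at 2 months (-1.14 ± 0.11, limma adjusted p = 0.0067), and Sqle, squalene epoxidase, had 9.09 and 23.4 FPKM (-1.37 ± 0.13, limma adjusted p = 0.0062). Cyp51, the lanosterol demethylase, had 9.27, 9.25 and 10.9 FPKM in the 9-month libraries, against 27.0, 29.7 and 36.2 FPKM in the 2-month libraries (-1.67 ± 0.13, limma adjusted p = 0.0047). Msmo1, a sterol methyl oxidase, had 30.1, 29.4 and 32.5 FPKM at 9 months and 68.7, 79.9 and 89.2 FPKM at 2 months (-1.39 ± 0.11, limma adjusted p = 0.0054). Dhcr7, a reductase of the last steps, had 6.72, 7.80 and 7.69 FPKM in the 9-month libraries and 14.1, 16.6 and 18.8 FPKM in the 2-month libraries (-1.17 ± 0.12, limma adjusted p = 0.0088). Hsd17b7, Nsdhl, Acat2, Ebp and Pmvk were other members that fell, by 0.55 to 1.05 on the log2 scale.

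Some members did not pass the test. Lss, lanosterol synthase, had 2.65 FPKM at 9 months and 3.57 FPKM at 2 months, Sc5d had 21.8 and 33.6 FPKM and Insig1, which holds SREBP in the endoplasmic reticulum, had 14.9 and 25.8 FPKM (limma adjusted p = 0.063, 0.051 and 0.063). Srebf2, which encodes SREBP2, had 34.4 FPKM at 9 months and 48.7 FPKM at 2 months with no recovered libraries.

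Over the AD ages of 2, 4, 6, 9 and 12 months, the summed FPKM of the 23 genes was 596.4, 368.7, 451.6, 290.5 and 356.8, so that the 2-month group was the highest and the 9-month group the lowest. Hmgcs1 had 64.3, 23.5, 23.03, 16.6 and 18.1 FPKM at these ages, and its 2-month level stood alone. In AD the oligodendrocyte markers summed to 22772, 19090.5, 19971, 14053.6 and 16916.2 FPKM at the same ages. In WT the pathway summed to 543.7, 406, 589.8, 422.8 and 373.5 FPKM and the markers to 23149.3, 17322.9, 14109.9, 18242.5 and 19376.1 FPKM. In both genotypes both sums were lower at 9 months than at 2 months. At 6 months in WT the pathway sum was its highest and the marker sum its lowest. Of these markers, Mog had 645.4 FPKM at 9 months and 1300.1 FPKM at 2 months in AD, and Mbp had 1666.2 and 1682.3 FPKM. Cldn11, a myelin tight junction protein and 1 of the 4 markers with libraries, fell, with 153.3 FPKM at 9 months and 284.3 FPKM at 2 months (-0.92 ± 0.15, limma adjusted p = 0.023). The part of the oligodendrocyte transcripts in the sterol result was not tested, and in such bulk samples fewer cells of a type and less RNA per cell cannot be told apart.

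**Figure D2:**
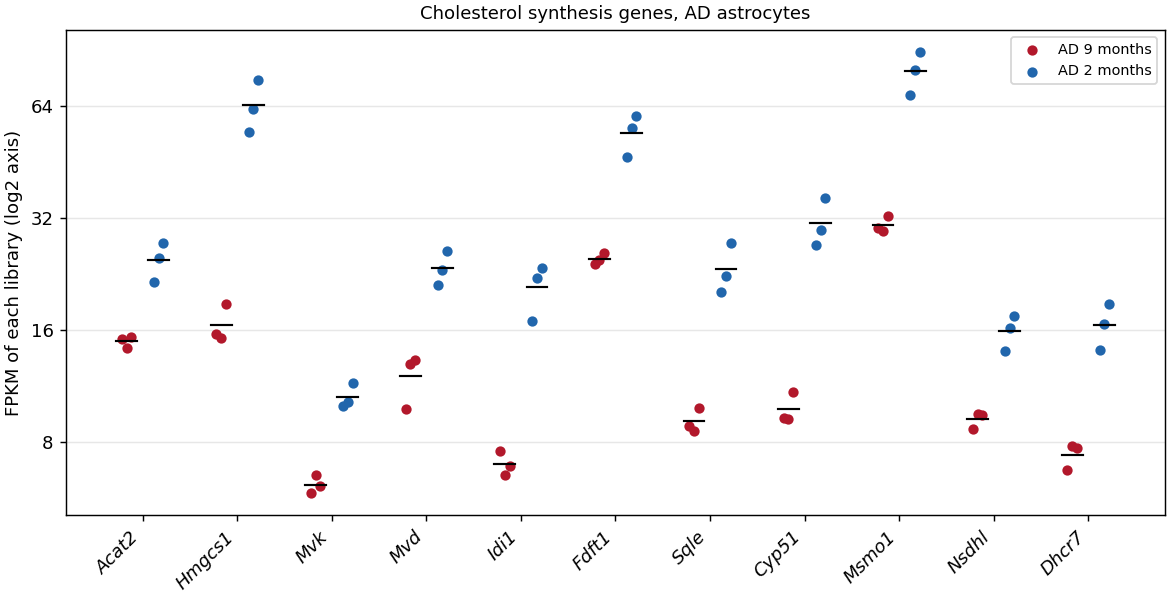
FPKM of 11 cholesterol synthesis genes in each recovered library, AD 9 months left of AD 2 months for each gene, on a log2 axis, with a black line at the group mean. For Hmgcs1 the 9-month libraries sit between 15.2 and 18.8 FPKM and the 2-month libraries between 54.5 and 75.4 FPKM.

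Fatty acid synthesis went part of the way. Of 14 listed genes, 5 were lower by fold and 5 of the 12 with libraries fell, with a median log2 fold change of -0.34. Over all genes, the shares were 10.2% and 4.23%. Aacs, which activates acetoacetate for lipid synthesis, had 4.80, 5.86 and 6.50 FPKM at 9 months and 13.8, 13.6 and 15.2 FPKM at 2 months (-1.34 ± 0.13, limma adjusted p = 0.0062). Acss2 and Acly, which make cytosolic acetyl-CoA, and the elongases Elovl1 and Elovl6 fell by 0.57 to 0.77. Fasn, fatty acid synthase itself, had 14.8 FPKM at 9 months and 19.5 FPKM at 2 months and did not pass the test (limma adjusted p = 0.11). Without library a of 2 months 6 members fell, and without any 1 of the other 5 libraries only 1 did.

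C4b, Serpina3n and Il33 were among the genes that rose, where 3.62% of all genes tested did. The study also lists C4b as age-up in WT astrocytes and reports Il33 as different in all its age comparisons. It reports Serpina3n as higher in astrocytes of 12 months than of 2 months. In WT at 9 against 2 months, 1 of 10 complement genes rose and 1 fell, and 1 of 11 pan-reactive genes rose and 3 fell, beside 7.28% and 9.47% over all genes. The test below of whether the change differed by genotype called none of 10 complement, 12 pan-reactive and 15 cytokine and chemokine genes. C4b (ENSMUSG00000073418), a complement component that reactive glia make near amyloid, had 18.0, 25.2 and 26.0 FPKM in the 9-month AD libraries, against 2.04, 2.92 and 1.46 FPKM in the 2-month AD libraries (3.37 ± 0.26, limma adjusted p = 0.0043). Its group means over 2, 4, 6, 9 and 12 months were 2.14, 5.60, 9.23, 23.1 and 55.2 FPKM, each above the one before. It was the one of 10 complement genes kept that passed the test, and the median of that list was -0.11. Serpina3n, a secreted serine protease inhibitor and a marker of reactive astrocytes, had 16.8, 12.1 and 18.5 FPKM at 9 months and 4.12, 7.66 and 3.21 FPKM at 2 months (1.69 ± 0.32, limma adjusted p = 0.032), and was the one of 11 pan-reactive genes tested that rose. Gfap, the intermediate filament most used to mark reactive astrocytes, had 7.93 FPKM at 9 months and 7.35 FPKM at 2 months.

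Il33 (ENSMUSG00000024810), a nuclear cytokine by which astrocytes signal to microglia, had 236.9, 278.8 and 319.7 FPKM in the 9-month libraries and 45.8, 82.3 and 60.4 FPKM in the 2-month libraries (2.15 ± 0.22, limma adjusted p = 0.0080). Of 15 cytokine and chemokine genes tested, Il33 and Tnfsf9, the ligand of 4-1BB, rose and none fell. In WT, 4 of 14 rose and 1 fell, beside 7.28% and 9.47% over all genes. Tnfsf9 had 4.98 FPKM at 9 months and 2.74 FPKM at 2 months in AD. None of the 9 genes of the A1-type reactive list that were tested passed with limma, with 1 higher and 1 lower at an unadjusted p under 0.05 and 1 that rose with voom (limma's weighting by fragment numbers), and of the 8 A2-type genes 1 did: Emp1, a membrane protein, with 0.694 FPKM at 9 months and 1.26 FPKM at 2 months. Of 22 type I interferon response genes, Xaf1, an inhibitor of the apoptosis inhibitor XIAP, was the one that passed, at 16.3 FPKM at 9 months and 10.4 FPKM at 2 months. For MHC class I and class II genes, 0 of 10 and 0 of 3 passed with limma, 0 at an unadjusted p under 0.05 and 0 with voom. Over all genes, 4428 of 14881 were at such an unadjusted limma p in either direction.

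Other genes that rose do not belong to 1 pathway. Abca8a, a lipid transporter of the ABC family, had 13.4, 14.1 and 11.1 FPKM at 9 months and 1.22, 2.13 and 1.23 FPKM at 2 months (3.0 ± 0.22, limma adjusted p = 0.0041). Neat1, the noncoding RNA that scaffolds nuclear paraspeckles, had 29.9, 34.9 and 36.9 FPKM at 9 months and 6.90, 8.35 and 7.09 FPKM at 2 months (2.14 ± 0.12, limma adjusted p = 0.0018, the smallest value reached, which Gnrh1 and Fbxw15 share). In both genes every 9-month library lay above every 2-month library. Spock3, a proteoglycan that inhibits proteases, rose too, with 33.8 FPKM at 9 months and 15.04 FPKM at 2 months.

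Gnrh1, the precursor of gonadotropin-releasing hormone, had the largest difference of the genes named here, and it rested on few fragments at 2 months. The 9-month libraries held 91, 135 and 73 fragments, or 6.21, 9.31 and 5.04 FPKM, and the 2-month libraries 1, 2 and 1 fragments, or 0.0740, 0.160 and 0.0807 FPKM. Scaled to depth, the ratio of the sums, 299 against 4 fragments, was 65.7 with an exact 95% interval of 25.4 to 242.8, which covers counting error only. The group means at 2, 4, 6, 9 and 12 months were 0.105, 0.654, 10.9, 6.85 and 2.72 FPKM. In WT astrocytes the order was the other way, with 0.624 FPKM at 9 months and 2.15 FPKM at 2 months.

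Some large differences varied widely in size between libraries. Gapdh, a glycolytic enzyme and the qPCR reference of the study, had 15.8, 33.5 and 1.52 FPKM in the 9-month libraries and 0.816, 1.18 and 1.38 FPKM in the 2-month libraries, and did not pass the test (2.96 ± 1.02, limma adjusted p = 0.11). Its 9-month libraries differ from each other more than 10-fold, and near-identical pseudogenes can share its reads. Depp1, which is induced by FOXO factors, passed, but library b of 9 months was far above the others, with 39.3, 111.4 and 41.3 FPKM at 9 months and 14.8, 13.7 and 5.72 FPKM at 2 months (2.39 ± 0.51, limma adjusted p = 0.041).

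**Figure D3:**
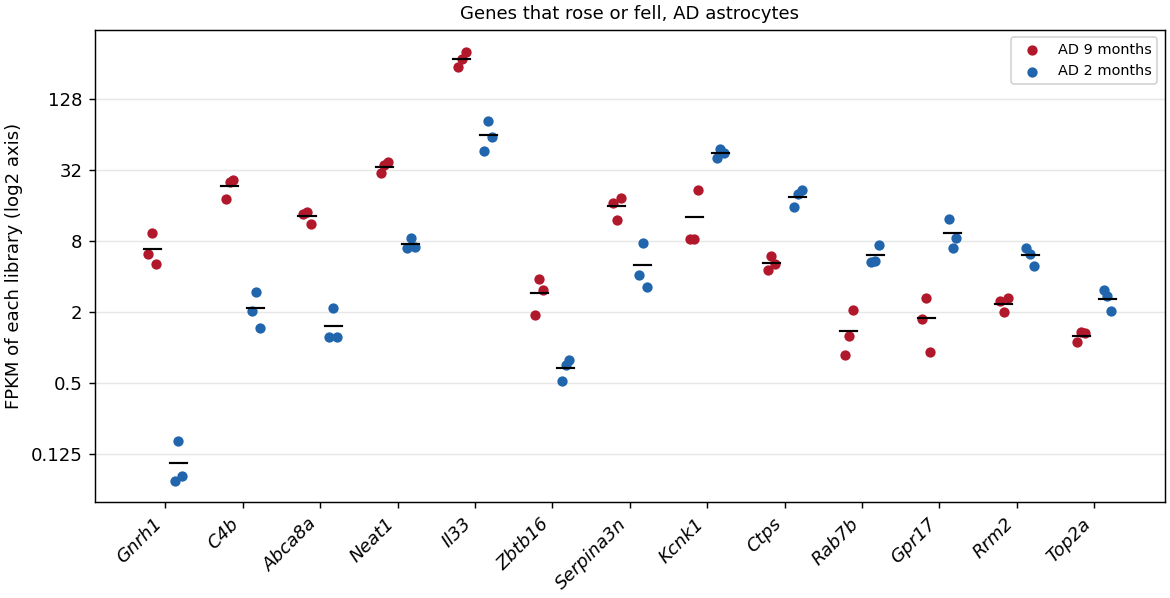
FPKM of 13 genes that rose or fell, in each recovered library, AD 9 months left of AD 2 months for each gene, on a log2 axis, with a black line at the group mean. The 9-month libraries of C4b lie between 18.0 and 26.0 FPKM and its 2-month libraries between 1.46 and 2.92 FPKM.

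Some clock genes rose, all of them repressors. The circadian clock runs on the activators Arntl and Clock, which drive their own repressors, the Per, Cry and Nr1d genes. Of 19 clock genes kept, 8 were higher by fold and none was lower, 6 rose and none fell, beside 12.7% higher by fold and 3.62% that rose over all genes, and the median log2 fold change was 0.44. Per3 had 2.82, 4.12 and 4.32 FPKM in the 9-month libraries and 1.38, 1.45 and 1.504 FPKM in the 2-month libraries (1.27 ± 0.17, limma adjusted p = 0.019). Nr1d1, which encodes the nuclear receptor REV-ERBα, had 22.95, 20.8 and 19.98 FPKM at 9 months and 13.3, 15.04 and 14.5 FPKM at 2 months (0.54 ± 0.09, limma adjusted p = 0.025). Cry2, Nr1d2, Bhlhe40 and Bhlhe41, all repressors, rose by 0.49 to 0.64. Per1 had 3.67 FPKM at 9 months and 1.96 FPKM at 2 months, Dbp, a clock output factor, had 7.91 and 5.24 FPKM and Arntl had 3.90 and 4.29 FPKM, and these did not pass (limma adjusted p = 0.064, 0.078 and 0.43). With 1 library left out, no more than 2 of the 6 calls were made (1, 0 and 0 without library a, b or c of 9 months, and 2, 0 and 0 without those of 2 months). In WT astrocytes 4 of 19 clock genes rose and 1 fell, beside 7.28% and 9.47% over all genes, with a median of 0.22. The test below of whether the change differed by genotype called none of the 19. The hour at which each brain was taken is not given in the sources used here.

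The promoter of Per3 is shown because it holds TTATGTAA, the D-box bound by DBP and its relatives, in 2 places, printed in capitals, 205 and 158 bases before the start. It is from RefSeq on GRCm38.p6, chr4:151044616-151044915, minus strand, over the same window around the start.
Per3 promoter: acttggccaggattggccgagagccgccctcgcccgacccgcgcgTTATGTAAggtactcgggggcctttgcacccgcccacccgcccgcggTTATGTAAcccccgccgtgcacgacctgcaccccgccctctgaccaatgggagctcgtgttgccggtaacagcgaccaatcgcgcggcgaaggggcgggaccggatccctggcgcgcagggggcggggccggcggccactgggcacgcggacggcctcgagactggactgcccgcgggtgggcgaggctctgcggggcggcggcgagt
On either strand, TTATGTAA was found in 1 of 17 clock promoters (5.88%) and in 299 of all 27025 (1.11%). The E-box CACGTG was found in 5 of the 17 (Per1, Cry1, Tef, Ciart and Bhlhe41, 29.4%) and in 2187 of all promoters (8.09%).

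The list of glucocorticoid and metallothionein response genes was smaller. Of 14 kept, 6 were higher by fold and 3 of the 11 with libraries rose, beside 12.7% and 3.62% over all genes. Sgk1, a kinase that controls ion channels, had 52.0, 92.2 and 56.3 FPKM in the 9-month libraries and 18.5, 31.9 and 17.8 FPKM in the 2-month libraries (1.53 ± 0.29, limma adjusted p = 0.033). Zbtb16, a zinc finger repressor, had 1.88, 3.78 and 3.04 FPKM at 9 months and 0.522, 0.711 and 0.774 FPKM at 2 months (1.89 ± 0.27, limma adjusted p = 0.020), and Plin4, a lipid droplet coat protein, also rose. Leaving out 1 library left 1 of these calls without library a of 9 months or library a or b of 2 months, and none without the others. Sgk1 had 93.97, 459.3 and 429.1 FPKM at 4, 6 and 12 months, well above its 9-month level of 66.8 FPKM. In WT astrocytes 3 of 11 genes of this list rose too, beside 7.28% over all genes, and the median log2 fold change was 0.37, against 0.29 in AD. The test below of whether the change differed by genotype called none of the 11.

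Genes of cell division were lower at 9 months than at 2 months. All 22 had a negative log2 fold change, 19 were lower by more than 0.5, and 11 fell, with a median of -0.79. In WT astrocytes 10 of 22 fell, beside 9.47% over all genes, with a median of -0.72. The test below of whether the change differed by genotype called none of the 22. Over all genes, 10.2% were lower by fold and 4.23% of those tested fell in AD. Rrm2, the ribonucleotide reductase subunit that supplies deoxynucleotides in S phase, had 2.45, 1.98 and 2.59 FPKM in the 9-month libraries and 6.96, 6.21 and 4.86 FPKM in the 2-month libraries (-1.34 ± 0.16, limma adjusted p = 0.014). Top2a, which untangles replicated DNA, had 1.10, 1.34 and 1.32 FPKM at 9 months and 3.05, 2.70 and 2.01 FPKM at 2 months (-1.0 ± 0.18, limma adjusted p = 0.028). The cyclins Ccna2 and Ccnb1 and the ubiquitin ligase partner Ube2c fell by 1.02 to 1.10. Mki67, the usual proliferation marker, had 0.543 FPKM at 9 months and 0.938 FPKM at 2 months and did not pass (limma adjusted p = 0.13). The calls rested on the libraries used: 2 of the 22 fell without library a of 2 months, 1 and 7 without library b or c of 2 months, and 0, 0 and 1 without library a, b or c of 9 months.

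Some markers of immature cells fell too. Of 10 neural stem cell and neuroblast genes, 9 were lower by fold and 4 fell, among them Igfbpl1, a marker of neuroblasts, with 0.660, 0.504 and 0.750 FPKM at 9 months and 2.25, 1.55 and 1.31 FPKM at 2 months (-1.29 ± 0.24, limma adjusted p = 0.031). None of the 4 calls was made when any 1 library was left out. In WT astrocytes 8 of the 10 fell, beside 9.47% over all genes, with a median of -1.09, against -0.68 in AD. Over all genes, 10.2% were lower by fold and 4.23% of those tested fell in AD. In the list of committed oligodendrocyte precursors 2 of 8 tested fell, with a median of -0.39, and in that of earlier precursors 1 of 8 fell, with a median of -0.26 and 6 of 10 kept genes below 0. Gpr17, a receptor of oligodendrocyte precursors that have begun to differentiate, had 1.74, 2.61 and 0.912 FPKM at 9 months and 12.2, 6.97 and 8.44 FPKM at 2 months (-2.43 ± 0.37, limma adjusted p = 0.022). Pdgfra, the receptor that marks earlier precursors, had 0.856 FPKM at 9 months and 1.43 FPKM at 2 months and fell by 0.70 ± 0.14. Hist1h2ae, a histone gene named after its values were seen, had 3.05, 2.52 and 2.45 FPKM at 9 months and 11.7, 8.48 and 8.61 FPKM at 2 months (-1.83 ± 0.16, limma adjusted p = 0.0056), although near-identical copies can share its reads. The fibroblast collagens Col1a1, Col1a2 and Col3a1 fell by 0.94 to 1.35, with 2-month levels no higher than 2.87 FPKM.

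Among single genes that fell, Ctps, which makes CTP for nucleic acid and phospholipid synthesis, had 4.50, 5.90 and 5.05 FPKM at 9 months and 15.5, 19.7 and 21.6 FPKM at 2 months (-1.88 ± 0.15, limma adjusted p = 0.0054). Kcnk1, a 2-pore potassium channel, had 8.29, 8.22 and 21.4 FPKM at 9 months and 40.5, 47.8 and 44.6 FPKM at 2 months (-1.98 ± 0.36, limma adjusted p = 0.029), with library c of 9 months well above the other two. Rab7b, a small GTPase of late endosomes, had 0.862, 1.24 and 2.06 FPKM at 9 months and 5.29, 5.34 and 7.35 FPKM at 2 months (-2.12 ± 0.30, limma adjusted p = 0.020). The libraries of the ages did not overlap in any of these. Tmem163, a zinc transporter, fell by 1.57 ± 0.15, with 3.55 FPKM at 9 months and 10.4 FPKM at 2 months. Slc38a5, an amino acid transporter that is high in brain endothelium, had 7.06, 9.35 and 6.38 FPKM at 9 months and 35.8, 16.0 and 17.7 FPKM at 2 months, the highest value being in the library rich in endothelial markers. Of 13 endothelial markers tested, none passed with limma in AD astrocytes, 6 were lower at an unadjusted p under 0.05 and 1 fell with voom, although 14 of 15 were lower by fold. Over all genes, 4428 of 14881 were at an unadjusted limma p under 0.05 in either direction, and 10.2% were lower by fold.

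Of 16 genes that handle glutamate, GABA, potassium and water, 2 of 12 tested fell and none rose, beside 4.23% and 3.62% over all genes. These were Kcnk1 and Slc38a3, a glutamine transporter, which had 35.5 FPKM at 9 months and 47.1 FPKM at 2 months. The glutamate transporter Slc1a3 had 114.1 FPKM at 9 months and 165.0 FPKM at 2 months, the water channel Aqp4 had 49.5 and 64.6 FPKM, and glutamine synthetase, Glul, had 513.5 and 402.1 FPKM. Of 14 astrocyte markers tested, Ttyh1, a chloride channel family member, fell, with 48.9, 35.9 and 38.7 FPKM at 9 months and 56.7, 63.4 and 65.2 FPKM at 2 months (-0.62 ± 0.13, limma adjusted p = 0.041). Of 22 synapse forming and clearing genes tested, 3 rose and 2 fell, beside 3.62% and 4.23% over all genes. C4b and Il33 were among those that rose, and Thbs4, a thrombospondin, and Chrdl1, which astrocytes secrete to mature synapses, fell. Chrdl1 had 2.73, 2.48 and 2.57 FPKM at 9 months and 3.42, 4.50 and 4.64 FPKM at 2 months.

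Genes of mitochondrial energy supply had small differences, nearly all below 0, and few calls. The differences belong to the 9-month group and do not run through the ages. At 2, 4, 6, 9 and 12 months in AD, nuclear respiratory chain genes summed to 8838.7, 10088.9, 14014.8, 7430.9 and 13394.0 FPKM. Citric acid cycle genes summed to 647.1, 587.1, 826.9, 555.7 and 795.8 FPKM at these ages. Of 69 nuclear genes of the respiratory chain and ATP synthase, 68 had a negative log2 fold change, with a median of -0.27, against -0.04 over all kept genes, and 1 was lower by more than 0.5. With limma, 3 of 54 fell, a share near the 4.23% over all genes tested, and with FPKM as given or size factors per library 1 and 0 did. These were Uqcrc1 of complex III, with 60.1, 54.2 and 57.8 FPKM at 9 months and 69.6, 74.5 and 77.8 FPKM at 2 months (-0.39 ± 0.09, limma adjusted p = 0.043), Cox5a of complex IV and Atp5c1 of the ATP synthase. Of 16 citric acid cycle genes tested, 5 fell (Cs, Ogdh, Sdhc, Sdhd and Pdha1), and 3 with either of those scalings. Cs, citrate synthase, had 23.2, 22.3 and 22.8 FPKM at 9 months and 27.6, 30.6 and 29.3 FPKM at 2 months (-0.38 ± 0.08, limma adjusted p = 0.036). The scaling on better expressed genes moves every gene up by the same small amount, from a median of -0.04 to 0.05 over all kept genes, so the size of these differences depends on it. These calls were lost when 1 library other than a of 2 months was left out: 0 respiratory and 0 citric acid cycle genes fell in each of the other 5 cases, and 4 and 3 without that library. The 13 mitochondrially encoded genes had a median of 0.30, and none of 8 tested passed with limma, although 3 were higher at an unadjusted p under 0.05 and 2 rose with voom. Over all genes, 4428 of 14881 were at such an unadjusted limma p in either direction. Of 78 cytosolic ribosomal protein genes, 76 had a negative log2 fold change with a median of -0.28, and 2 of 70 tested fell, a share below the 4.23% over all genes. In AD these ribosomal genes summed to 4037.8, 4402.1, 4902.9, 3350.4 and 5104.2 FPKM at 2, 4, 6, 9 and 12 months.

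In smaller groups a few members were called, where 3.62% of all genes tested rose and 4.23% fell. Among splicing regulators, 5 of 22 tested rose and none fell with limma, whereas 7 were higher and 5 lower at an unadjusted p under 0.05, 1 fell with voom and the median of the list was 0.05. Over all genes, 4428 of 14881 were at such an unadjusted limma p in either direction. Clk1, a kinase of splicing factors, had 20.7, 21.99 and 22.3 FPKM at 9 months and 12.3, 12.6 and 10.1 FPKM at 2 months (0.86 ± 0.11, limma adjusted p = 0.014), and Clk4, Rbm39, Srrm1 and Srsf11 were the others that rose. Among chromatin modifiers and remodelers, 3 of 35 rose (Kmt2e, Chd6 and Chd9) and none fell, beside 3.62% and 4.23% over all genes, with a median log2 fold change of 0.24. Without 1 library the counts ran between 0 and 4 for splicing regulators and between 0 and 1 for chromatin genes, the higher value in both being without library a of 2 months. In the endoplasmic reticulum list, the chaperones Calr and Hyou1 fell, and the stress factors Ddit3 (CHOP) and Trib3, a pseudokinase induced by CHOP, rose. Trib3 had 1.34, 1.65 and 2.11 FPKM at 9 months and 0.671, 0.460 and 0.536 FPKM at 2 months (1.42 ± 0.22, limma adjusted p = 0.022). Of 16 antioxidant genes tested, Gpx1, glutathione peroxidase, Cat, catalase, and Prdx2 fell and Gstm6 rose. Gpx1 had 68.4, 62.0 and 58.4 FPKM at 9 months and 165.7, 103.3 and 107.1 FPKM at 2 months. Tfrc, the transferrin receptor, and Aco1, whose protein senses iron, were the 2 of 12 iron and heme genes that fell, by 1.03 ± 0.14 and 0.72 ± 0.12. Of 23 lysosomal genes tested, 4 fell, among them the cathepsins Ctsc and Ctsl. Of 10 genes of APP processing tested, Adam17, an α-secretase, and Ncstn, a subunit of γ-secretase, fell, with 4.79 and 14.0 FPKM at 9 months and 8.07 and 19.9 FPKM at 2 months.

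**Figure D4:**
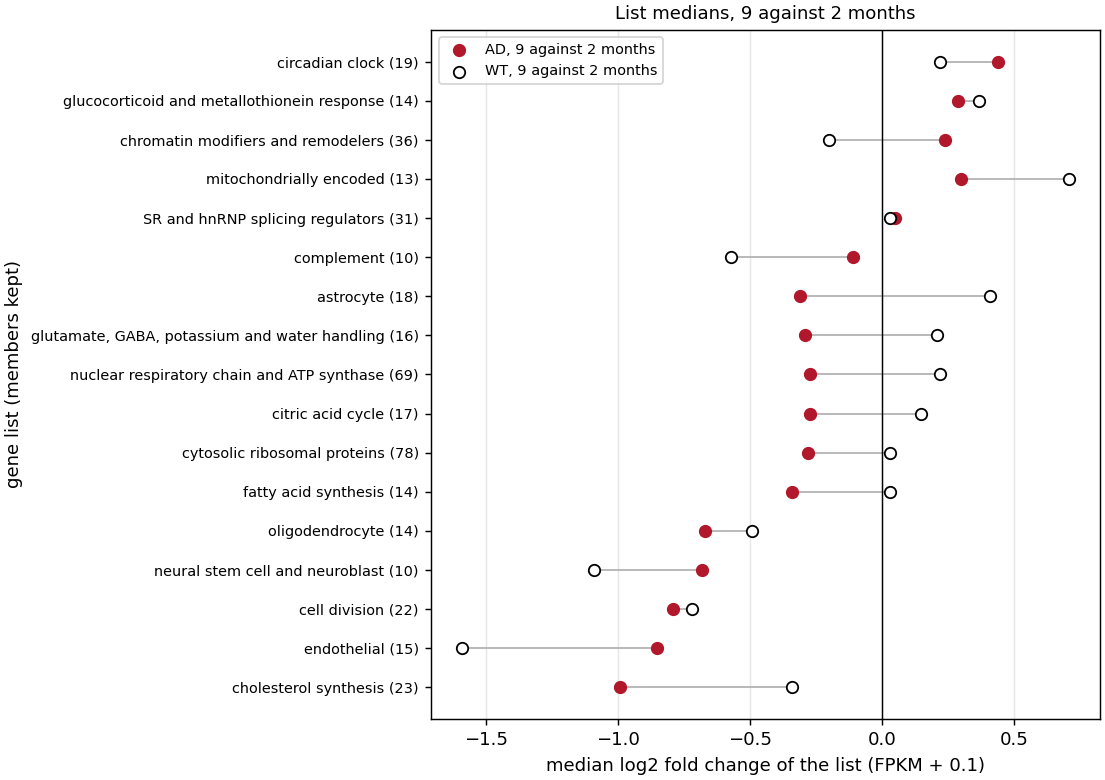
Median log2 fold change (9 over 2 months) of the kept members of 17 gene lists in AD astrocytes (filled) and WT astrocytes (open). Cholesterol synthesis has a median of -0.99 in AD and -0.34 in WT, and nuclear respiratory chain genes have -0.27 in AD and 0.22 in WT.

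The same ages were then compared in WT astrocytes, which share no sample with the AD comparison. With limma, 1063 of 14611 genes rose in WT (7.28%) and 1384 fell (9.47%). Over the 15118 genes kept in both, the log2 fold changes of AD and WT correlated with r = 0.46 and rho = 0.44, across genes that are not independent of each other. Of 522 genes that rose in AD and were tested in WT, 180 rose and 4 fell in WT, and of 626 that fell in AD, 255 fell and 11 rose in WT. Of the genes that the study had called age-up in its WT astrocytes, 54 of 170 tested rose and 3 fell in AD, and of its age-down genes, 56 of 162 fell and none rose. Their medians were 0.35 and -0.62 in AD, where 3.62% of all genes tested rose and 4.23% fell. Those lists were chosen on the WT libraries shown here, so their WT values are no independent evidence.

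Whether the change between 2 and 9 months differed by genotype was tested gene by gene as the interaction of genotype and age over 12 libraries. It was lower in AD for 98 of 15322 genes (0.640%) and higher in AD for 33 (0.215%), so most genes that changed in AD were not called different from WT: 39 of the 629 that fell and 25 of 538 that rose were. These counts rest on single libraries. Without the deepest AD library of 2 months they were 309 lower and 195 higher, and with 1 of the other 11 libraries left out they ran from 4 to 115 and from 2 to 29.

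Genes of cholesterol synthesis were among those with a lower change in AD, with 5 of 21 called, beside 0.640% over all genes. Msmo1 had 30.7 FPKM at 9 months and 79.3 FPKM at 2 months in AD, against 57.1 and 66.0 FPKM in WT, and the log2 fold changes differed by -1.15 ± 0.15 (limma adjusted p = 0.015). Fdft1, Hmgcs1 and Dhcr7 were called too, at -0.94, -0.82 and -0.71 (limma adjusted p = 0.036 to 0.047). Of the 21 members tested, 17 fell in AD and 11 in WT, and the median of the list was -0.99 in AD and -0.34 in WT. Over all genes tested, 4.23% fell in AD and 9.47% in WT. The oligodendrocyte markers summed to 14053.6 FPKM at 9 months and 22772 FPKM at 2 months in AD, against 18242.5 and 23149.3 FPKM in WT, and their part in this difference was not tested.

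Energy supply genes also held several. The interaction test called 6 of 54 respiratory chain genes and 3 of 16 citric acid cycle genes lower in AD, beside 0.640% over all genes. The remaining ones were not called. The nuclear respiratory chain list had a median of -0.27 in AD and of 0.22 in WT, where 19 of 54 genes rose and none fell, beside 7.28% and 9.47% over all genes. Endothelial markers had lower sums at 9 months in both genotypes: 0 of 13 tested fell in AD, where they summed to 1222 FPKM at 9 months and 2715 FPKM at 2 months, against 12 of 12 in WT, with 1360 and 4001.9 FPKM. Over all genes tested, 4.23% fell in AD and 9.47% in WT. By fold, 14 of the 15 endothelial markers kept were lower in AD, beside 10.2% over all genes. None of 12 endothelial markers was called in the interaction test. The part of the endothelial markers in the genotype differences was not tested. Ndufa5, Ndufc1, Atp5g3, Cox6c, Uqcrc1 and Atp5c1 had a lower change in AD, by 0.52 to 0.77 on the log2 scale. Ndufa5 of complex I had 93.0, 85.9 and 94.2 FPKM at 9 months and 104.8, 95.7 and 79.9 FPKM at 2 months in AD, and in WT 126.5, 123.1 and 120.4 FPKM at 9 months and 81.7, 79.9 and 77.4 FPKM at 2 months. Between 2 and 9 months it was thus the WT level that moved. At 4, 6 and 12 months Ndufa5 had 120.5, 184.3 and 174.8 FPKM in AD, against 124.7, 180.6 and 133.1 FPKM in WT. Its AD level was therefore also above that of 2 months at the other ages, and not at 9 months. Cs, Idh3a and Sdhb of the citric acid cycle were called too, at -0.46, -0.58 and -0.53.

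Other genes were lower at 9 months than at 2 months in AD and higher in WT. Chrdl1 had 2.59 FPKM at 9 months and 4.19 FPKM at 2 months in AD, against 6.26 and 3.19 FPKM in WT (difference of the log2 fold changes -1.57 ± 0.28, limma adjusted p = 0.040). Atp1b1, a sodium pump subunit, had 17.7 FPKM at 9 months and 25.3 FPKM at 2 months in AD, against 33.0 and 22.4 FPKM in WT (-1.07, limma adjusted p = 0.011). Igfbp2, a secreted binder of insulin-like growth factors, had 53.8 and 83.2 FPKM in AD, against 88.3 and 59.5 FPKM in WT at the same ages, and Gpm6a, a membrane glycoprotein of neurites, had 119.9 and 197.3 FPKM in AD, against 207.8 and 146.8 FPKM in WT. Aqp4 (-0.83), Id2, a repressor of differentiation (-0.72), and Hapln1, which links hyaluronan to proteoglycans (-0.99), were also called. For all of these genes except Aqp4, 9 months had the lowest level of the AD ages. Gpm6a, for example, had 141.5, 269.5 and 259.3 FPKM in AD at 4, 6 and 12 months, and Atp1b1 had 20.2, 33.2 and 25.0 FPKM. Astrocyte markers as a list had a median of -0.31 in AD and 0.41 in WT, and 1 of 14 was called in the interaction test.

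In the other direction, Gnrh1 had the largest difference of the named genes after the kallikrein Klk1b22, at 6.69 ± 0.40 (limma adjusted p = 7.9e-05). Dock9, a guanine exchange factor, had 16.6 FPKM at 9 months and 8.80 FPKM at 2 months in AD, against 11.6 and 10.99 FPKM in WT (0.83, limma adjusted p = 0.017). At 4, 6 and 12 months Dock9 had 8.99, 4.13 and 4.64 FPKM in AD, so the 9-month AD group was the high one. Coro2b, an actin-binding protein, had 5.44 and 5.23 FPKM in AD, against 3.59 and 7.26 FPKM in WT, so its difference of 1.05 lay mostly in the WT samples. Paip1, a regulator of translation initiation, had 18.7, 16.1 and 13.8 FPKM at 9 months and 4.35, 4.93 and 5.60 FPKM at 2 months in AD, against 16.3 and 15.9 FPKM in WT at 9 and 2 months (1.66, limma adjusted p = 0.040). Its AD means at 4, 6 and 12 months were 16.3, 23.5 and 19.6 FPKM, so the 2-month AD group was the low one. Trib3, too, had a higher change in AD (2.16), with 0.434 FPKM at 9 months and 0.770 FPKM at 2 months in WT.

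**Figure D5:**
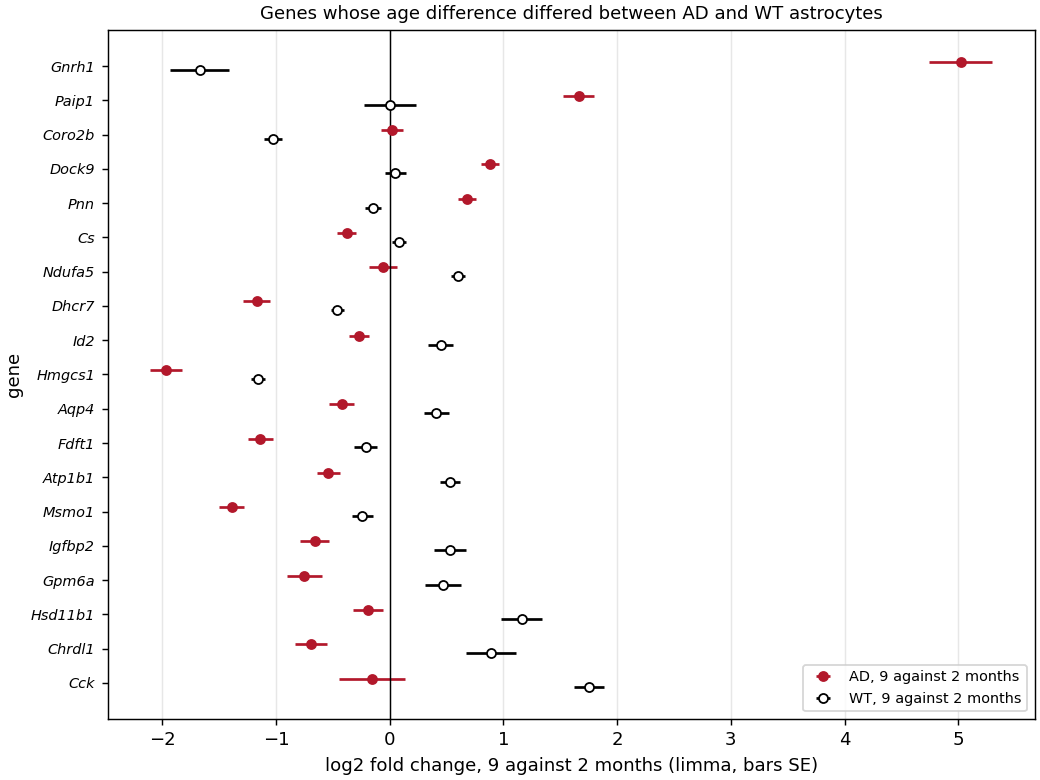
Log2 fold change (9 over 2 months) ± the standard error of limma for 19 genes in AD astrocytes (filled) and WT astrocytes (open). Fdft1 is at -1.14 in AD and -0.21 in WT, whereas Gnrh1 is at 5.02 in AD and below 0 in WT.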

How the data were processed

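RNA of ACSA2-sorted astrocytes had been amplified with SMART-Seq v4 and sequenced paired-end without strand, which leaves overlapping and antisense genes unresolved. The authors aligned with Hisat2, counted with featureCounts and deposited 1 FPKM per gene and group, the mean of 3 samples; GEO's notes name Bowtie 0.12.2 and mm8. Deposited FPKM were scaled by size factors (median of ratios, 10 astrocyte groups, 22232 genes; 1.0374 for AD 9 months, 1.0171 for AD 2 months) and compared as log2(FPKM + 0.1), which understates the change of low genes. A gene was higher or lower past 0.5. Group means have no test.

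As each value had about 15 digits, library fragment numbers were recovered as the 1 set of whole numbers whose mean reproduced it, with gene lengths from GENCODE M21. They carry no label number. Limma 3.58.1 (R 4.3.3; trend, Benjamini-Hochberg) tested log2(FPKM + 0.1) of these libraries; p-values measure the spread between 3 mice per group. Recovery, limma, its alternatives, some genes named beyond the rule and the choice of lists with alternatives were decided after seeing the data. The script was tested on simulated data. Python 3.11.15, numpy 2.4.6, scipy 1.17.1 and pandas 2.3.3 did the rest.

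Genes were named as the 20 highest and lowest of at least 5 FPKM, the 10 of at least 50 FPKM, the 4 highest and lowest of each of 60 lists, cell type markers, genes the study names, the 8 highest and lowest AD minus WT differences, and label checks. Members and lists were chosen with earlier results of these data known. Only the membership of the study's age lists was used. Some genes are not reported here.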

Additional observations from a re-analysis of the deposited data

Results flagged for a closer look

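For 30 genes named by the rule or in the text, the log2 fold change between 9 and 2 months differed between AD and WT astrocytes in the limma interaction test (Benjamini-Hochberg adjusted p under 0.05, 6 libraries per genotype). Each value is the AD minus the WT log2 fold change. Among genes of secreted and membrane proteins, the difference was -1.91 for Cck, which encodes cholecystokinin and had 4.70 FPKM at 9 months and 5.42 FPKM at 2 months in AD, against 18.7 and 5.31 FPKM in WT. At 4, 6 and 12 months Cck had 8.29, 20.8 and 19.1 FPKM in AD. The difference was -1.57 for Chrdl1, -1.22 for Gpm6a, -1.19 for Igfbp2, -1.07 for Atp1b1, -0.99 for Hapln1 and -0.83 for Aqp4. Hsd11b1, which regenerates active glucocorticoid, was at -1.35 and Id2 at -0.72.

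In cholesterol synthesis the differences were -1.15 for Msmo1, -0.94 for Fdft1, -0.82 for Hmgcs1 and -0.71 for Dhcr7. In energy supply they were -0.77 for Ndufc1, -0.66 for Ndufa5, -0.61 for Atp5g3, -0.59 for Cox6c, -0.58 for Idh3a, -0.53 for Uqcrc1, -0.53 for Sdhb, -0.52 for Atp5c1 and -0.46 for Cs.

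The change was higher in AD for Pnn, a splicing-associated protein (0.83), with 20.4 FPKM at 9 months and 12.5 FPKM at 2 months in AD, against 14.5 and 15.8 FPKM in WT. It was also higher for Dock9 (0.83), Coro2b (1.05), Paip1 (1.66) and Trib3 (2.16). Nxpe4 (3.14) had overlapping AD libraries, and its WT level was 1.13 FPKM at 9 months and 6.00 FPKM at 2 months. Gnrh1 was at 6.69. Klk1b22, a kallikrein with close paralogs that share reads, was at 6.87, with 9.54 FPKM at 9 months and 5.74 FPKM at 2 months in AD, against 0 FPKM in all 3 libraries at 9 months and 6.98 FPKM at 2 months in WT, and this fitted value depends on the pseudocount and is no bound.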

How the results depend on the processing

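No paired analysis was possible because the recovered libraries carry no replicate number. With 1 column per group, alternatives of the fold counts bear on 2 values a gene. Genes higher and lower past the fold were 904 and 890 with a pseudocount of 1, 4583 and 3081 with no filter and 701 and 386 past a log2 of 1; at a filter of 1 FPKM 1301 were higher. Leaving out 1 library gave 1841 to 2134 higher and 1324 to 1754 lower. Other scalings and a length and GC correction stayed within 1.5 times.

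With limma, voom gave 992 genes that fell; leaving out 1 library gave 48 to 410 that rose and 38 to 546 that fell. Of the 539 genes that rose, 462 also passed under each alternative of scaling, pseudocount and voom, 323 without the deepest 2-month library and 34 with every library left out in turn; of the 629 that fell, 475, 388 and 23 did, and none changed sign. The genotype difference gave 4 to 309 genes lower and 2 to 195 higher in AD with 1 library left out.

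List counts with 1 library left out ranged from 8 to 20 for cholesterol synthesis, 0 to 7 for cell division, 1 to 6 for fatty acid synthesis, 0 to 3 for the citric acid cycle, 0 to 4 for the respiratory chain, 0 to 7 for lysosomal genes, 0 to 3 for fibroblast genes and 0 to 3 for antioxidant genes that fell, with 0 throughout for neural stem cell genes. For genes that rose, it was 0 to 2 for the clock, 0 to 1 for glucocorticoid genes, 0 to 1 for chromatin, 0 to 4 for splicing regulators, 1 to 3 for synapse genes and 2 to 5 for the genes the study names. The study's WT age-up genes gave 15 to 45 that rose and 0 to 2 that fell, and its age-down genes 8 to 54 that fell. With FPKM as given or size factors per library, 2 neural stem cell, 3 fatty acid and 3 citric acid cycle genes fell, and 1 or 0 respiratory genes. With voom, 10 respiratory genes fell, and 5 glucocorticoid and 6 chromatin genes rose. The cause of these shifts was not tested.

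Spock1, a proteoglycan, had a log2 fold change of 0.90 that no test called; it turned to -1.02 without library c of 9 months and was 3.03 without library b of 2 months. Of other named genes, 118 of 479 limma results lost a call in at least 1 alternative and 62 gained one. Depth limits genes of few fragments most, as with Gnrh1 at 2 months.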

Other observations

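Genes that no list above covered also differed. Fbxw15, an F-box protein gene of a family with close copies, had 6.86, 6.31 and 6.58 FPKM in the 9-month AD libraries and 1.24, 0.999 and 1.247 FPKM in the 2-month libraries (2.38 ± 0.12, limma adjusted p = 0.0018). Tmem59l had 12.8, 11.8 and 10.5 FPKM at 9 months and 3.20, 2.63 and 1.9 FPKM at 2 months (2.14 ± 0.19, limma adjusted p = 0.0056). Cdk5rap1, which modifies mitochondrial transfer RNA, had 8.22 FPKM at 9 months and 1.93 FPKM at 2 months and rose by 1.98 ± 0.18. Clec2d, a ligand of a natural killer cell receptor, had 2.13, 2.01 and 1.899 FPKM at 9 months and 13.7, 6.92 and 6.23 FPKM at 2 months (-2.04 ± 0.28, limma adjusted p = 0.020).

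Vegfb, a growth factor of the VEGF family, had 24.1 FPKM at 9 months and 17.1 FPKM at 2 months and rose by 0.47 ± 0.08, whereas Wnt7a, a Wnt ligand that supports the vessels of the brain, had 6.12 FPKM at 9 months and 11.1 FPKM at 2 months and fell by 0.87 ± 0.12. Sorl1, a sorting receptor for APP and an Alzheimer risk gene, had 6.91 FPKM at 9 months and 9.25 FPKM at 2 months and fell by 0.44 ± 0.10, the one of 8 risk genes tested that passed. Ogdhl, with no recovered libraries, had 42.9 FPKM at 9 months and 6.98 FPKM at 2 months, and Ttr, the transthyretin of choroid plexus, had 165.4 FPKM at 9 months and 649.9 FPKM at 2 months.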
